A study of Mus musculus with 6 samples.

Results

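MHC class II molecules carry peptides to the surface of antigen-presenting cells for recognition by CD4+ T cells, and 10 genes of this system were followed through whole terminal ileum, the distal end of the small bowel. The set was Ciita, Rfx5, Rfxap, Rfxank, H2-Aa, H2-Ab1, H2-Eb1, Cd74, H2-DMa and H2-DMb1, taken by symbol from a table of 23402 genes. Levels are in FPKM, that is fragments for each kilobase of transcript, scaled to depth. They were chosen with the comparison below already known, because Ciita had been seen higher and Rfxank lower in Cre-positive animals. All differences between groups in these 10 genes are therefore given as descriptions, without a test.

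The 6 libraries came from 6 mice aged 6 weeks, 1 library per mouse, sampled on day 6 of drinking water with dextran sodium sulfate (DSS), which damages the gut lining. All mice carried floxed Il17ra, the gene of an interleukin-17 receptor subunit. In 3 mice, labelled Il17rafl/fl;Atoh1-cre+ and called Cre-positive here, Cre was driven by Atoh1, a transcription factor gene of the secretory epithelial lineage. Their 3 littermates, labelled Il17rafl/fl;Atoh1-cre-, are called Cre-negative. Every mouse received DSS, and an effect of DSS itself was not measured here. The inbred background, which sets the class II alleles, was not given in the sources used here. The comparison addresses how deleting the receptor subunit from secretory cells alters ileal RNA levels, and the RNA came from every cell of the tissue.

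Class II transcription depends on a platform and a switch. At the promoters, the RFX complex (Rfx5, Rfxap and Rfxank products) binds an X box, a cAMP response element binding protein sits beside it and NF-Y binds a Y box of the letters ATTGG. These proteins are made in most cells. The coactivator CIITA, which does not bind DNA itself, docks on them and is made only where class II is needed, in B cells, dendritic cells, macrophages and thymic epithelium, and in other cells, gut epithelium included, under interferon-gamma. Ciita is transcribed from alternative promoters in different cell types, and a gene-level FPKM value adds them up.

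The promoters of 3 class II genes whose levels moved together across the libraries are printed here beside those of 2 subunits of the RFX complex, so that the docking letters can be seen. RefSeq promoters (build GRCm38.p6, 250 bases before to 50 bases after the start site, shown 5′ to 3′ on the gene's strand) were held for 6 of the 10 genes. Ciita, Rfxap, H2-Ab1 and Cd74 had none. The windows are chr17:34287774-34288073 on the minus strand for H2-Aa, chr17:34305617-34305916 on the plus strand for H2-Eb1, chr17:34152941-34153240 on the plus strand for H2-DMb1, chr8:70139148-70139447 on the minus strand for Rfxank and chr3:94953858-94954157 on the plus strand for Rfx5. Capitals mark the X box core searched for (CTNGNAAC), the Y box (ATTGG) and, in the H2 genes, the core of a cAMP response element (TGACG), on either strand.
H2-Aa: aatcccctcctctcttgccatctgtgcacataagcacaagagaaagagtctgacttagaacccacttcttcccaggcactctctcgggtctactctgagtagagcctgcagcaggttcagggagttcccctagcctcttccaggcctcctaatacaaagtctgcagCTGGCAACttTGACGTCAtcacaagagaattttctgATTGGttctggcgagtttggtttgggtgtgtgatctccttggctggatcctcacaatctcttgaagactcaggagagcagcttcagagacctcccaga
H2-Eb1: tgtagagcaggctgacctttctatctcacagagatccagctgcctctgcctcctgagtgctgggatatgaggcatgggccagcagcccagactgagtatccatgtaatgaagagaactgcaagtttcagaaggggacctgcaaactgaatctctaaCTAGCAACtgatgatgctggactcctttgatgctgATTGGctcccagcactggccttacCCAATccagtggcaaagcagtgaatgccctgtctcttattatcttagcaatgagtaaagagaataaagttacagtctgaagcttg
H2-DMb1: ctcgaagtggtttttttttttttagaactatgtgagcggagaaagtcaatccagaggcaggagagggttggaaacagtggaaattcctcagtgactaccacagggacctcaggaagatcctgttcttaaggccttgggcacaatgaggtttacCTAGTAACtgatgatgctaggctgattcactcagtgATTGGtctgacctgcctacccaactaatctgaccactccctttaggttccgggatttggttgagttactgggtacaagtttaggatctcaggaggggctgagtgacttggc
Rfxank: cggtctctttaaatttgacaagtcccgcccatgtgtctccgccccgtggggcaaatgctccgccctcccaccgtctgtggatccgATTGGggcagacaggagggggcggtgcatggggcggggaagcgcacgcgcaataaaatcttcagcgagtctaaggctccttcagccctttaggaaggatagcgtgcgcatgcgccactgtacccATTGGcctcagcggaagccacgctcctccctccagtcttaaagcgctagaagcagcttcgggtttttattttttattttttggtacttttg
Rfx5: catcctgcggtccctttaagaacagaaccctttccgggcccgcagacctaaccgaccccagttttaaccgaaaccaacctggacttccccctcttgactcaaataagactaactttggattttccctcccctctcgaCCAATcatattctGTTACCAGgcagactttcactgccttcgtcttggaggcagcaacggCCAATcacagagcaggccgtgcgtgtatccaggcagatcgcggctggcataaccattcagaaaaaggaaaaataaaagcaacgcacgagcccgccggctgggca

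In H2-Aa, H2-Eb1 and H2-DMb1 the X box core was followed by a Y box on the same strand, 36, 35 and 36 bases downstream, counted from the first base of one to the first base of the other. The X box cores began 84, 94 and 97 bases before the start site (positions -84, -94 and -97). Such a pair, with 20 to 40 bases between the starts, occurred in 90 of 32851 RefSeq promoters (0.274%). An X box core anywhere in the window occurred in 13.2%, a Y box in 37.4% and the TGACG core in 20.8%. Of the 4 class II chain genes outside the set, H2-Ob also held the pair, at a distance of 33 bases. In H2-Aa the TGACG core lies in a stretch that reads as the same core on the other strand, so its overlapping matches form 1 marked block shortly after the X box. The Rfxank window held 2 Y boxes and no X box core, and the Rfx5 window held an X box core and 2 Y boxes on the minus strand without this spacing. Of the windows of H2-DMa, neither held an X box core and the downstream one held a Y box. The letters for the X box were chosen after the sequences had been read, and a match describes the sequence without showing binding.

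The libraries were alike in depth and gene number. From the steps between the lowest FPKM values, depth was put at 8060000 to 10800000 fragments, a range that covers the libraries and the length corrections tried, and 16317 to 16547 genes were listed above 0. Il17ra stood at 6.04, 5.91 and 6.53 FPKM in Cre-negative 1, 2 and 3 and at 7.93, 8.36 and 6.07 FPKM under the Cre-positive label, so it was no lower there. Cells without Atoh1 make up much of this tissue, so Il17ra does not check the labels, and every direction here is that of the libraries as labelled. Of the ileal epithelial markers, the bile acid genes Fabp6 (9.79 FPKM at most) and Slc10a2 (0.0669 to 1.94 FPKM) were far below Vil1 and Epcam, with Fabp6 at 0.316 to 2.41 FPKM in every library but Cre-negative 3. Vil1 and Epcam stood between 468 and 782 FPKM. The name terminal ileum is that of the labels, and whether the libraries differ in the segment sampled was not tested. The level of Xist put Cre-negative 3, Cre-positive 2 and Cre-positive 3 apart from the other 3 libraries (148 to 177 FPKM against at most 0.194 FPKM), so the sexes were unevenly spread over the groups.

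limma's moderated test on log2(FPKM + 1) was run over the 12695 genes whose mean reached 1 FPKM. After Benjamini-Hochberg adjustment 0 of them (0%) were called at the 0.05 threshold, while 323 higher and 136 lower in Cre-positive libraries fell under 0.05 before adjustment. That split became 273 and 219 under quantile normalization, 288 and 207 under median-of-ratios scaling, and 1119 and 54 once all libraries had the same FPKM sum. Leaving out Cre-positive 3 made the calls over all genes 40 higher and 1 lower. All 10 genes of the set passed the filter. One of the 10, Ciita, was higher in every Cre-positive library than in every Cre-negative library, as were 5.77% of all genes tested. Rfxank alone was lower in every Cre-positive library, as were 2.6% of all genes. Since the set was chosen on this contrast, nothing is read from these counts. The median log2 fold change of the 10 was 0.24, beside 0.03 over all genes tested, with 8 estimates above 0 and 2 below. Over all genes tested, 58.4% of estimates were above 0 as deposited, 48.0% under median-of-ratios scaling and 83.1% with equal sums.

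Ciita, the switch, lies on chromosome 16 from 10480059 to 10528418 (plus strand, GRCm38, 8 annotated transcripts in GENCODE M21). It stood at 8.05, 7.67 and 8.09 FPKM in Cre-negative 1, 2 and 3 and at 10.7, 12.2 and 14.2 FPKM in Cre-positive 1, 2 and 3. The Cre-negative values were close together, all Cre-positive values lay above them, and Cre-positive 3 was the highest. Means were 7.94 ± 0.233 and 12.4 ± 1.74 FPKM (SD, n = 3 each), a ratio of 1.56 and a log2 fold change of 0.57 (SE 0.12) on the log2(FPKM + 1) scale, which understates the change of low genes. At the estimated depth these levels rest on about 79.0 to 129 fragments per kilobase of transcript. Among the Xist-high libraries Ciita stood at 8.09 FPKM in Cre-negative against 12.2 and 14.2 FPKM in Cre-positive, and among the others at 8.05 and 7.67 FPKM against 10.7 FPKM. Adding sex to the model, an alternative chosen after the data were seen, gave 0.52. Ciita was chosen for this difference and its groups do not overlap, so any such split must show it higher in Cre-positive libraries. The part of sex in the difference was not tested.

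Rfxank, the ankyrin-repeat subunit of the RFX complex, went the other way. It lies on chromosome 8 from 70130794 to 70139154 (minus strand, 4 transcripts). Its level was 6.39, 6.61 and 6.35 FPKM in the Cre-negative libraries and 4.77, 4.23 and 4.45 FPKM in the Cre-positive libraries. Within each group the 3 values were close, and the groups did not overlap. The means were 6.45 ± 0.138 and 4.48 ± 0.273 FPKM (SD, n = 3 each), a ratio of 0.695 and a log2 fold change of -0.44 (SE 0.10). About 40.4 to 69.0 fragments per kilobase of transcript lay behind each value, fewer than for Ciita. Without Cre-positive 2 the log2 fold change was -0.41, and without Cre-positive 1 it was -0.48.

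The other subunits of the RFX complex overlapped between the groups. Rfx5, the DNA-binding subunit (chromosome 3 from 94954075 to 94961561), stood at 5.93, 4.68 and 4.17 FPKM in Cre-negative and at 5.95, 5.72 and 6.70 FPKM in Cre-positive libraries. Cre-negative 1 lay between Cre-positive 2 and Cre-positive 1, Cre-negative 2 and 3 lay below all Cre-positive libraries, and Cre-positive 3 was the highest. The log2 fold change was 0.27 (SE 0.14). Rfxap, the third subunit (chromosome 3 from 54803115 to 54807791), had 3.36, 4.70 and 4.95 FPKM against 4.09, 4.16 and 4.18 FPKM. Here the 3 Cre-positive values fell inside the Cre-negative range, and the log2 fold change was -0.04 (SE 0.14), with the sign changing under 3 of 17 alternatives. The 3 subunits thus had estimates of different sign. The ratio of Ciita to Rfxank was 1.16 to 1.27 in Cre-negative libraries against 2.25, 2.89 and 3.19 in Cre-positive 1, 2 and 3. The choice of these genes for their opposite differences fixes that separation.

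**Figure D1:**
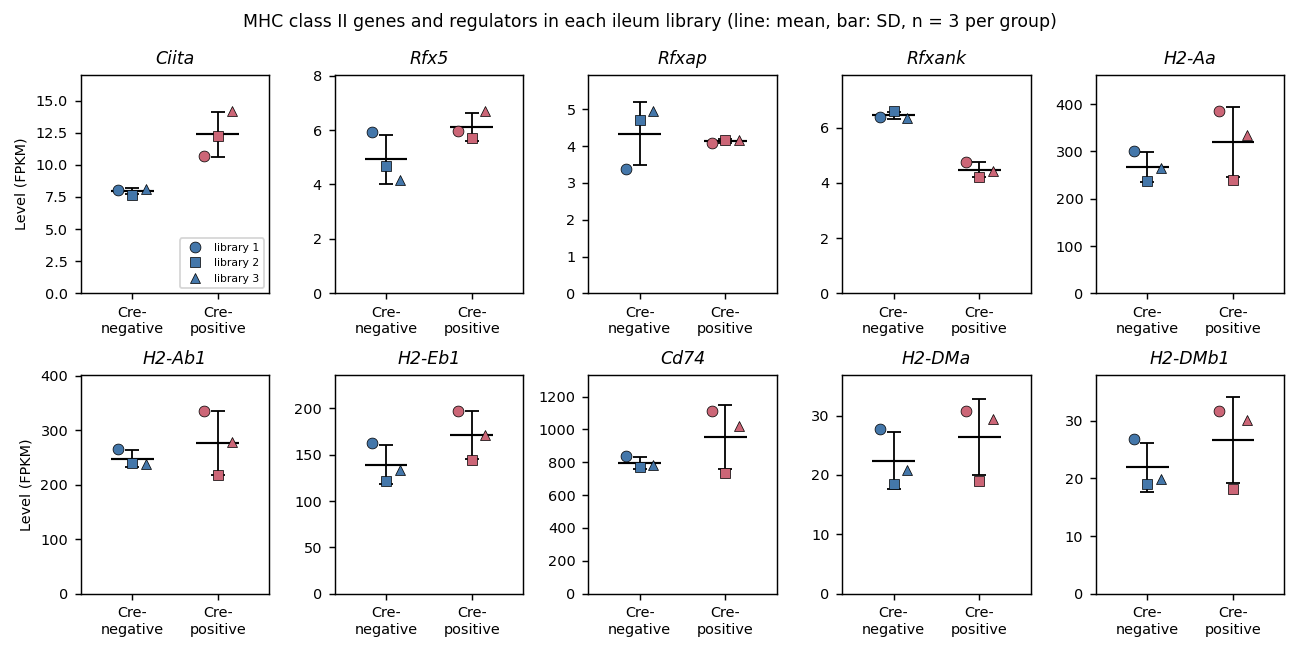
Level of each of the 10 genes in FPKM (y axis, from 0, its own scale in each panel) in the 3 Cre-negative and 3 Cre-positive libraries. Points are libraries, horizontal lines are group means and bars are SD. Ciita and Rfxank are separated between the groups in opposite directions, and in the H2 genes and Cd74 the library Cre-positive 2 lies with the Cre-negative libraries.

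The class II chains themselves were far more abundant than their regulators and did not separate the groups. H2-Aa, the alpha chain of I-A (chromosome 17 from 34282744 to 34287823), stood at 301, 237 and 266 FPKM in Cre-negative and at 385, 240 and 335 FPKM in Cre-positive libraries. H2-Ab1, its beta chain partner (chromosome 17 from 34257689 to 34269419), stood at 266, 239 and 238 FPKM against 335, 217 and 279 FPKM. In both genes Cre-positive 1 and 3 were above all Cre-negative libraries, and Cre-positive 2 was near or below the lowest of them. H2-Eb1, the beta chain of I-E (chromosome 17 from 34305867 to 34316674), stood at 162, 121 and 134 FPKM against 197, 145 and 172 FPKM, with Cre-positive 2 between Cre-negative 3 and Cre-negative 1. The log2 fold changes were 0.24 (SE 0.19), 0.14 (SE 0.17) and 0.29 (SE 0.16).

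The genes that load the groove were also highest in Cre-positive 1, then Cre-positive 3, then Cre-negative 1. Cd74, the invariant chain that occupies the groove until the endosome (chromosome 18 from 60803848 to 60812652), was the most abundant of the 10, at 839, 769 and 782 FPKM against 1110, 736 and 1021 FPKM. H2-DMa, a chain of the peptide-exchange factor H2-M (chromosome 17 from 34119541 to 34139101), stood at 27.8, 18.5 and 20.9 FPKM against 30.7, 19.1 and 29.4 FPKM. H2-DMb1, a beta chain of the same factor (chromosome 17 from 34153072 to 34160230), stood at 26.8, 19.0 and 19.9 FPKM against 31.7, 18.1 and 30.2 FPKM. For all 3, Cre-positive 1 and 3 lay above every Cre-negative library, Cre-negative 1 was the highest of its group, and Cre-positive 2 lay at or near the bottom. The log2 fold changes were 0.24 (SE 0.19), 0.22 (SE 0.21) and 0.25 (SE 0.22). Over the chains and loading genes, the ratio of group means ran from 1.12 (H2-Ab1, 248 ± 16.1 against 277 ± 58.7 FPKM, SD, n = 3 each) to 1.23 (H2-Eb1, 139 ± 21.0 against 171 ± 26.1 FPKM). H2-DMb1 has a close copy, H2-DMb2, and how the authors' quantification shared reads between copies was not given in the sources used here.

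These 6 genes varied together from library to library. Over the 6 libraries, Pearson's r on log2(FPKM + 1) between pairs of them ran from 0.853 to 0.989 (15 pairs). These values are descriptions, since all genes share the same 6 libraries and their scaling. The summed level of the 6 was 1623, 1404 and 1461 FPKM in Cre-negative and 2089, 1376 and 1866 FPKM in Cre-positive libraries. Leaving out Cre-positive 2 brought all 6, with Ciita and Rfx5, above every Cre-negative library (8 of 10 genes, beside 7.93% of all genes in that comparison). The 6 vary together and dip in the library left out, and Ciita was chosen as higher, so the 8 are not separate observations. Rfx5 in Cre-positive 1 (5.95 FPKM) was barely above Cre-negative 1 (5.93 FPKM). Leaving out Cre-negative 1 made the count 3 higher and 2 lower (beside 15% and 5.4% of all genes), and without Cre-positive 1 the log2 fold change of H2-Ab1 was -0.01.

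The level of Ciita and the level of its targets were not in the same order. Cre-positive 1 had the lowest Ciita of its group and the highest class II sum, and Cre-positive 2 had the second highest Ciita of the 6 libraries and the lowest class II sum. Pearson's r of Ciita with each of the 6 genes was 0.212 to 0.543 (n = 6 libraries), that of Rfx5 0.50 to 0.773, that of Rfxap -0.592 to -0.27 and that of Rfxank -0.55 to -0.188. Between Ciita and Rfxank it was -0.956, which the choice of these genes for their opposite differences largely fixes. The summed class II level per FPKM of Ciita was 202, 183 and 180 in the Cre-negative libraries, 195 in Cre-positive 1, and 112 and 132 in Cre-positive 2 and 3. Ciita was chosen for its higher level in Cre-positive libraries, which by itself lowers this quotient there.

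**Figure D2:**
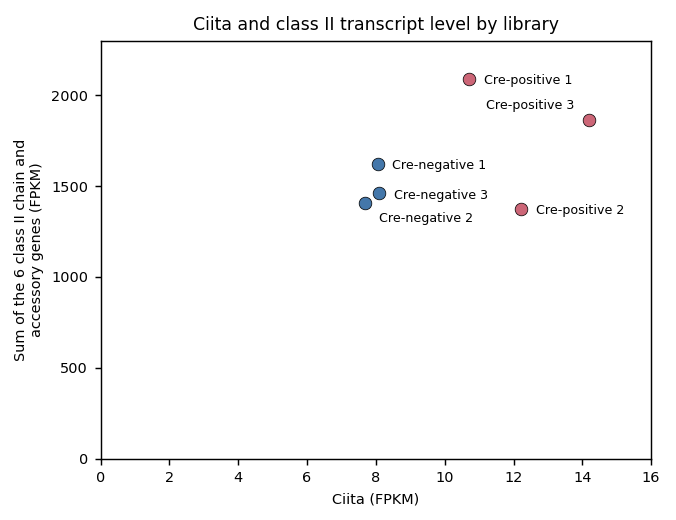
Ciita level (x axis, FPKM) against the summed level of H2-Aa, H2-Ab1, H2-Eb1, Cd74, H2-DMa and H2-DMb1 (y axis, FPKM), 1 labelled point per library, both axes from 0. The 3 Cre-negative libraries lie together near 8 FPKM of Ciita, and the Cre-positive libraries spread from 1376 to 2089 FPKM in the class II sum.

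Class II chains outside the set were high in the 2 libraries with high B cell markers. H2-Oa and H2-Ob encode the B cell enriched inhibitor of H2-M, H2-DMb2 a further H2-M beta chain and H2-Eb2 a further E beta chain. H2-Ob stood at 1.82, 0.874 and 0.587 FPKM in Cre-negative and at 7.04, 8.42 and 1.05 FPKM in Cre-positive libraries. H2-Oa stood at 1.12, 1.502 and 0.841 FPKM against 4.38, 4.62 and 1.04 FPKM. Both were several times higher in Cre-positive 1 and 2 and inside the Cre-negative range in Cre-positive 3. H2-DMb2 (2.11, 1.67 and 1.38 against 6.51, 7.58 and 2.06 FPKM) and H2-Eb2 (0.602, 0.587 and 0.228 against 2.92, 3.44 and 0.425 FPKM) had that pattern as well. H2-Eb2 averaged under 1 FPKM in Cre-negative libraries and entered the test only through the Cre-positive ones, so its p is not used. Of the other 3, 0 were called over all genes by limma and all 3 had an unadjusted p under 0.05 on the higher side, as had 2.54% of all genes. Without Cre-positive 3 these 3 were called higher (limma adjusted p = 0.0174 to 0.0315), as were 0.315% of all genes, with log2 fold changes of 1.36 to 2.10. Cre-positive 3 was the Cre-positive library without the pattern, so leaving it out favours such a call. Under no other alternative was any of these 3 called.

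**Figure D3:**
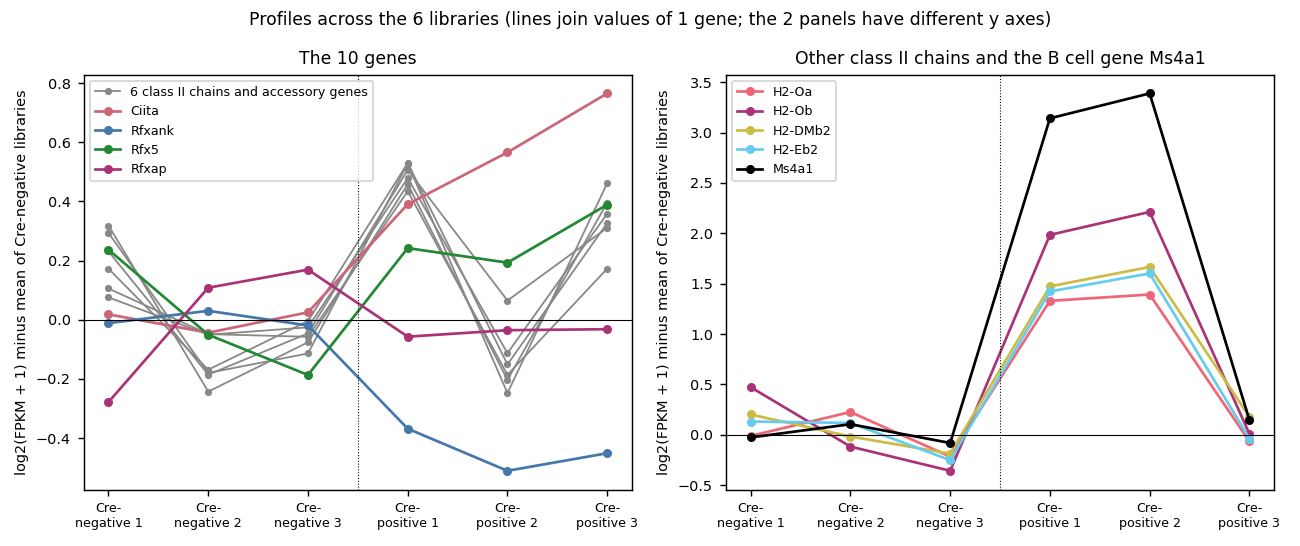
Level in each library as log2(FPKM + 1) minus the mean of the 3 Cre-negative libraries (y axis, different scales) for the 10 genes (left) and for 4 other class II chains and the B cell gene Ms4a1 (right); lines join the values of 1 gene. Left, Ciita is highest in Cre-positive 3 and the 6 chains and accessory genes dip in Cre-positive 2. Right, all 5 genes are high in Cre-positive 1 and 2 only.

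Markers of the cells that make class II constitutively were summed in each library, because whole tissue cannot tell more cells of a type from more RNA per cell. The 12 B cell markers summed to 9.31 to 19.98 FPKM in Cre-negative libraries and to 89.1, 109 and 14.0 FPKM in Cre-positive 1, 2 and 3, and Pax5 and Fcer2a were at 0 in at least 1 library. Cre-positive 3, the library with the most Ciita, was therefore inside the Cre-negative range for the B cell sum, with Pax5 at 0. Ms4a1 stood at 0.302 FPKM there, above the Cre-negative libraries (0.111 to 0.264 FPKM). Cre-positive 2 had the highest B cell sum and the lowest class II sum. The 12 macrophage markers summed to 176 to 211 FPKM in Cre-negative and to 228, 192 and 181 FPKM in Cre-positive libraries, and none was at 0. Cre-negative 1 and Cre-positive 1, which had the highest macrophage sums, also had the highest class II sums of their groups. In the rest of each group the orders differed. Macrophage sums were higher in Cre-negative 2 (185 FPKM) than in Cre-negative 3 (176 FPKM), and in Cre-positive 2 than in Cre-positive 3. The class II sums of both pairs ran the other way. The 13 dendritic cell markers summed to 65.9 to 78.7 FPKM against 86.3 to 88.0 FPKM, without overlap, with none at 0. Irf8 and Kit, which other cells also make, are in that sum, and Irf8 was its largest part. Irf8 itself overlapped between the groups (34.7 to 42.8 against 41.7 to 49.8 FPKM), while Flt3, Ccr7, Batf3 and Kit did not. Single genes higher in every Cre-positive library made up 5.77% of all genes tested. Of the 10 dendritic cell markers tested, 9 estimates were above 0 (beside 58.4% of all genes) and 1 below (Cd209a, -0.10). Over all genes, 0 of these markers were called. Flt3 and Ccr7 entered the test only through the Cre-positive libraries. Of the other 8, Batf3 (0.53) alone had an unadjusted p under 0.05, beside 2.54% of all genes on the higher side. The part of these cells in the levels of Ciita and Rfxank was not tested.

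T cell markers (7 of 8 found) summed to 29.9 to 33.2 FPKM in Cre-negative and to 48.4, 40.7 and 22.9 FPKM in Cre-positive libraries. The sum of 7 group 3 innate lymphoid markers was 28.0 to 33.2 FPKM against 24.4 to 31.4 FPKM, with Il22 at 0 in at least 1 library. Plasma cell markers ran from 778 to 1399 FPKM against 1027 to 1108 FPKM, and the 11 epithelial markers from 4374 to 4555 FPKM against 4008 to 4717 FPKM. The epithelial sum was highest in Cre-positive 1 and lowest in Cre-positive 2, the libraries with the highest and lowest class II sums. Between them the orders differed. Cre-positive 3, with the second highest class II sum, had an epithelial sum of 4371 FPKM, about level with the lowest Cre-negative library (4374 FPKM). Stromal markers (607 to 834 against 610 to 717 FPKM) and endothelial markers (37.9 to 42.5 against 35.1 to 58.2 FPKM) overlapped between the groups.

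The route from interferon-gamma to Ciita showed no called gene. Ifng itself was listed at 0 to 0.190 FPKM in Cre-negative and at 0.110 to 0.210 FPKM in Cre-positive libraries and did not pass the filter. Of the 9 genes tested, 4 estimates were above 0 and 5 below, the median log2 fold change was -0.01 and 0 had an unadjusted p under 0.05. Ifngr1, the ligand-binding receptor chain, was lower in all 3 Cre-positive libraries (83.2 ± 6.82 against 74.0 ± 4.08 FPKM, SD, n = 3 each, log2 fold change -0.16), as were 2.6% of all genes. Irf2 (0.12) and Jak1 (0.06) had small estimates. Of 6 tested repressors of Ciita or of chromatin at its locus, 5 estimates were above 0 (median 0.15), beside 58.4% of all genes. Of the 6, 0 had an unadjusted p under 0.05. These included the methyltransferase genes Dnmt3a (0.21) and Dnmt1 (0.29), Prdm1 (0.21), which silences Ciita in plasma cells, and Hdac2 (-0.09).

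The proteins that share the class II promoter with CIITA, and its coactivators, had a median log2 fold change of 0.06. Of the 12 tested, 9 estimates were above 0, beside 58.4% of all genes, and 0 had an unadjusted p under 0.05. Among them the chromatin remodeller gene Smarca4 (0.25) and the acetyltransferase genes Kat2a (0.20) and Kat2b (-0.16) were among those with the smallest p values. Nfyc, a subunit of the Y box factor NF-Y, was lower in every Cre-positive library (16.6, 15.98 and 16.6 FPKM against 14.7, 15.4 and 14.9 FPKM), as were 2.6% of all genes. Other RFX factors, which bind similar DNA without the class II subunits, had estimates above 0 as deposited (5 of 5 tested, beside 58.4% of all genes). Their median was 0.13 and 0 had an unadjusted p under 0.05, with Rfx1 at 0.15, Rfx3 at 0.17, Rfx6 at 0.13 and Rfx7 at 0.06. Rfx4 and Rfx8 were listed at or near 0.

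Downstream of transcription, 7 of 11 endosomal processing genes had estimates below 0, beside 5281 of all 12695 genes tested. Their median was -0.14 and 0 had an unadjusted p under 0.05. That median was -0.02 with equal sums, -0.04 without Cre-positive 2 and -0.23 without Cre-positive 1. The lysosomal membrane gene Lamp2 stood at 116, 115 and 116 FPKM against 113, 86.5 and 88.9 FPKM, and the invariant chain protease gene Sppl2a had a log2 fold change of -0.19. The asparaginyl protease gene Lgmn had one of -0.19 and the saposin precursor gene Psap one of 0.17. In the list of trafficking, turnover and CD74 partners (8 tested, median 0.18), Cxcr4, a chemokine receptor and CD74 partner, was the only gene with an unadjusted p under 0.05. It stood at 2.84, 2.55 and 2.30 FPKM against 7.27, 9.59 and 3.47 FPKM, again highest in the libraries with B cell markers. It was called only without Cre-positive 3 (limma adjusted p = 0.0227), the Cre-positive library where it was lowest. March1, the ubiquitin ligase that removes class II from the surface, had a log2 fold change of 0.38, Cd44 one of 0.32 and Ap1m1 one of 0.17.

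Costimulatory genes and class II ligands had a median of 0.19 (8 tested, 7 above 0, beside 58.4% of all genes). Cd80, a costimulatory ligand of antigen-presenting cells, was the exception, at 1.47, 1.70 and 1.24 FPKM against 1.11, 0.919 and 0.448 FPKM (log2 fold change -0.45). It reached the filter only through the Cre-negative libraries and Pdcd1lg2 only through the Cre-positive ones, so their p values are not used. Pdcd1lg2 had an estimate of 0.25, Icosl one of 0.24 and Cd4, the class II coreceptor, one of 0.28. In the class I pathway (9 tested, median 0.04), Nlrc5, the class I counterpart of Ciita, stood at 3.62, 3.80 and 2.76 FPKM against 3.93, 5.79 and 7.15 FPKM. It was above all Cre-negative libraries in each Cre-positive library, as were 5.77% of all genes, and highest in Cre-positive 3 (log2 fold change 0.57, SE 0.20, unadjusted p under 0.05, not called). The peptide transporter genes Tap1 (0.26) and Tap2 (0.16) and the loading factor gene Tapbp (-0.10) did not pass the test.

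Over all 11 lists, counting each gene once, 79 genes were tested and 0 were called. Of the 76 that reached 1 FPKM in both groups, 5 higher and 0 lower had an unadjusted p under 0.05, beside 2.54% and 1.07% of all genes tested. The 5 were H2-Oa, H2-Ob, H2-DMb2, Cxcr4 and Nlrc5. Over all 79 genes the median log2 fold change was 0.08.

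Genes beside Ciita and Rfxank were looked at next. Ciita overlaps Dexi on the opposite strand, and Dexi stood at 5.78, 3.88 and 5.96 FPKM against 4.93, 5.62 and 4.41 FPKM. Clec16a (0.05), Socs1 (-0.05), Nubp1 (0.22) and Rmi2 (0.27) lie near it and overlapped between the groups. Rfxank overlaps Nr2c2ap on the opposite strand, and Nr2c2ap stood at 13.5, 10.8 and 6.86 FPKM against 7.95, 12.2 and 11.8 FPKM. Borcs8, listed as 2310045N01Rik and starting 345 bases beyond the Rfxank start on the other strand, had a log2 fold change of 0.30, and Tmem161a one of 0.14. Mef2b was listed at 0 to 0.177 FPKM against 1.67, 1.62 and 0.200 FPKM, high in the libraries with B cell markers. H2-DMa overlaps Brd2 in the same way. The libraries were directional, but whether strand was used in counting was not given in the sources used here, so reads of overlapping opposite genes may not have been kept apart.

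The genes most like Ciita across the 6 libraries, by Pearson's r on log2(FPKM + 1) among the tested genes, were Edc3 (0.993), Fblim1 (0.987), Zfyve27 (0.985), Brpf1 (0.982) and Bcl11b (0.980). Those most like Rfxank were Ppp2cb (0.975), Cstb (0.974), Arntl (0.967), Tab3 (0.963) and Lpar5 (0.951). Those most like H2-Ab1 were Igsf9 (0.978), Zfp563 (0.973), Ap2a2 (0.959), Rbm24 (0.959) and H2-Aa (0.958). With 6 libraries, 12695 genes and 2 groups, high values of r are easily reached, and no p is attached to them. The genes nearest to Ciita moved less than Ciita did, as Edc3 shows with 9.81 to 10.1 FPKM in Cre-negative and 10.9 to 12.3 FPKM in Cre-positive libraries.

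**Figure D4:**
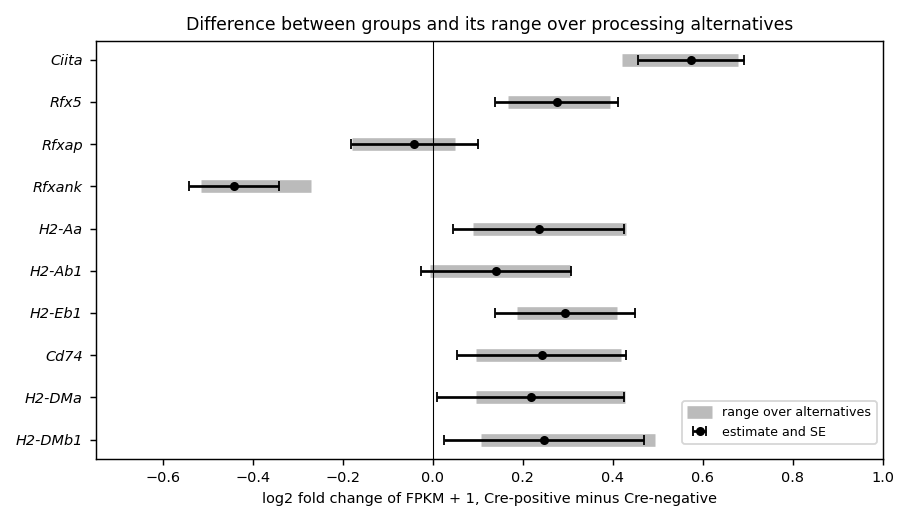
Log2 fold change of FPKM + 1, Cre-positive minus Cre-negative (x axis), for the 10 genes (y axis). Points and bars are the estimate and its SE from limma (n = 3 per group), and grey bars span the estimates under the alternatives. Ciita stays between 0.42 and 0.68, Rfxank between -0.52 and -0.27, and the ranges of Rfxap and H2-Ab1 cross 0.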

How the data were processed

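RNA from whole terminal ileum of 6 mice was sequenced, and the authors deposited 1 table of FPKM values with 1 column per library. Per the submitters' processing notes, tools were Cufflinks, Cuffnorm, STAR, Trimmomatic, FastQC, bedtools and SAMtools (no versions) and builds GRCm38 and mm10. Scaling between libraries was not given in the sources used here. No count model was used. Depth was estimated from low values: 76.9% to 79.1% of ratios to the first library lay within 0.02 (log2) of a ratio of whole numbers no larger than 6, against 7.63% to 10.1% at shifted scales. It sets the counting error only.

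Genes averaging 1 FPKM or more were tested on log2(FPKM + 1) with limma 3.58.1 in R 4.3.3 (trend, two-sided, Benjamini-Hochberg, threshold 0.05). The step was also run on simulated data with independent noise for each gene, which lack the variation that genes share across these libraries. Whether the mice shared a cage or batch is not stated, and p-values measure the spread between these animals. The members and lists were chosen with earlier results of these data known. The 11 pathway lists and 9 marker lists used older symbols for 5 genes, and 1 symbol had no match. Named in the text are the 10 genes, up to 4 per list by smallest p, all chains and gene neighbours tested, and the 5 most alike by r, leaving out predicted loci. Some genes that this rule names are not reported here. Names for Mef2b, Nfyc, Ifng, Fabp6, Slc10a2, Epcam, Vil1, Flt3, Batf3, Ccr7, Irf8, Kit and Cd209a were added after their values were seen. Positions are from GENCODE M21. Alternatives were pseudocounts, filters, scalings, limma settings, a replicate block and each library left out, and a sex term was added later. Tables and figures were made with numpy 2.4.6, pandas 2.3.3 and matplotlib 3.10.9 under Python 3.11.15.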

Additional observations from a re-analysis of the deposited data

How the results depend on the processing

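Over 18 alternatives the log2 fold changes of Ciita and Rfxank, whose signs under left-out libraries the choice of these genes fixes, ran from 0.42 (pseudocount 5) to 0.68 (equal sum) and from -0.52 (pseudocount 0.1) to -0.27 (pseudocount 5). Rescaling to an equal sum moved the median of all genes to 0.13. There Rfxank and Rfxap (0.05) were the only ones of the 10 genes under that median. Genes called over the whole table numbered 24 with array weights, 2 with pseudocount 0.1, 2 with pseudocount 5, 2 with equal sums and 1 with the replicate block, and 0 to 41 when 1 library was left out, the highest without Cre-positive 3. Genes of the pathway lists called numbered 0 to 5 when 1 library was left out, H2-Eb2 among the 5. Of the 10 genes, those higher in every Cre-positive library numbered 3 after rescaling to an equal sum (Rfx5 and H2-Eb1 added, beside 16.1% of all genes) and 2 with quantile normalization (H2-Eb1 added, beside 4.32%), and 1 to 8 with 1 library left out. Those lower numbered 1 to 2. Same-numbered libraries did not deviate together (correlations -0.13, 0.03 and -0.11). This cannot tell whether the numbers pair the animals, which was not given in the sources used here. In this balanced design the replicate block cannot move an estimate. Nor can the filters, limma without trend or limma with robust estimation, so these alternatives add nothing to the ranges. The sign of Rfxap changed in 3 alternatives and that of H2-Ab1 in 1. The filter of 5 FPKM removed Rfxap. The cause of these changes was not tested. At the estimated depth, about 36.3 to 69.0 fragments per kilobase limit the RFX subunits.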
